A study of Mus musculus with 20 samples.

Results

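The 10 genes described here were grouped as genes of motor neurons and other cholinergic neurons of the spinal cord. They are Chat, Slc18a3 and Slc5a7, which make, load and recover acetylcholine, Ache, which breaks it down, the transcription factors Isl1 and Mnx1, the intermediate filament genes Prph and Nefh, and Chodl and Calca. They were chosen by symbol, and all 10 were found among the 43629 rows of the count table. The level of a gene in these libraries need not come from motor or cholinergic neurons alone. The libraries come from nuclei of mouse spinal cord that were sorted by flow cytometry on NeuN (the product of Rbfox3), a nuclear protein of most neurons, and hold polyadenylated RNA. There were 4 groups of 5 libraries. They are NeuN-positive nuclei of mice with experimental autoimmune encephalomyelitis (EAE), NeuN-positive nuclei of healthy mice, NeuN-negative nuclei of mice with EAE, and NeuN-negative nuclei of healthy mice. EAE is an inflammatory demyelinating disease of the central nervous system raised by active immunization, and its nuclei were taken 15 days afterwards. Strain, sex, age and antigen are not stated in the labels. Nor do they say that the libraries of a group come from separate mice, so the p-values below measure the spread between these libraries, which may be technical in part.

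Motor neurons of the ventral horn release acetylcholine onto muscle and onto Renshaw cells, and smaller groups of cholinergic neurons lie around the central canal and in the lateral horn. Choline acetyltransferase (Chat) makes the transmitter, the vesicular transporter encoded by Slc18a3 loads it into vesicles, and the high-affinity transporter encoded by Slc5a7 takes choline back up after acetylcholinesterase (Ache) has split it. Motor neurons are few among spinal cord neurons. In mouse, gamma motor neurons, which supply muscle spindles, are known to hold little NeuN. In a bulk library, fewer cells of a type and less RNA per cell cannot be told apart.

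Across all 4 groups the transmitter genes were counted rarely while Ache and Nefh were abundant. Which cells held the Ache and Nefh transcripts was not tested. Levels are given as CPM, counts scaled to a common library size over the 20 libraries. Library totals ran from 3149209 to 37689267 counts, and a library held 4 to 131 counts of Chat. Per kilobase of exon, the order in EAE NeuN-positive libraries was Ache (89.2 ± 29.9 CPM per kb), Nefh (39.1 ± 9.58), Prph (13.6 ± 1.9), Calca (2.41 ± 0.993), Slc18a3 (1.67 ± 1.2), Isl1 (1.08 ± 0.565), Chodl (1.06 ± 0.609), Chat (0.497 ± 0.428), Mnx1 (0.384 ± 0.41) and Slc5a7 (0.216 ± 0.201), each the mean of 5 libraries with its SD. The means of Ache, Nefh and Prph stood further apart than their SDs, while neighbours from Calca down lay within an SD of each other. Ache, Nefh and Prph also led in healthy NeuN-positive libraries, at 145 ± 6.89, 62.7 ± 9.69 and 18.3 ± 6.05 CPM per kb. Nefh led in both NeuN-negative groups, at 14.3 ± 4.22 CPM per kb in EAE and 30.8 ± 16 CPM per kb in healthy libraries.

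The sort itself separated neuronal transcripts, but NeuN-positive libraries also held oligodendrocyte transcripts. A list of 6 oligodendrocyte markers summed to 10980 to 92150 CPM in EAE NeuN-positive and 31842 to 94074 CPM in EAE NeuN-negative libraries. In healthy libraries it summed to 3751.5 to 44001 CPM in NeuN-positive and 37962 to 64674 CPM in NeuN-negative ones. EdgeR called 4 of the 6 lower in NeuN-positive nuclei in each condition. Rbfox3, the NeuN gene, had 203 ± 73.2 CPM in EAE NeuN-positive, 329 ± 35.9 CPM in healthy NeuN-positive, 27.2 ± 13.2 CPM in EAE NeuN-negative and 29.5 ± 11 CPM in healthy NeuN-negative libraries (mean ± SD, n = 5 each). A list of 10 general neuron markers summed to 18689 to 29473 CPM in EAE NeuN-positive and 21384 to 26688 CPM in healthy NeuN-positive libraries. The same list summed to 821 to 2965 CPM in EAE NeuN-negative and 1632 to 3299 CPM in healthy NeuN-negative libraries. Most of the NeuN-positive sums was Snhg11, on average 22324 of 26702 CPM in EAE and 20221 of 23820 CPM in healthy libraries. In NeuN-negative libraries Snhg11 averaged 1114 CPM in EAE and 987 CPM in healthy ones. By the edgeR test described below, 9 of the 10 markers were higher in NeuN-positive nuclei in EAE and 8 in healthy mice. Elavl3 differed little between the healthy sorts, at 865 ± 453 CPM in NeuN-positive and 762 ± 360 CPM in NeuN-negative libraries. Of the motor and cholinergic genes, only Ache and Nefh followed that separation by test in both conditions, and the 3 transmitter genes were called between the sorts in neither.

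The start regions of the 4 acetylcholine genes are shown because Ache and the 3 transmitter genes differ so much in level and in their split between the sorts. They are RefSeq sequences of the GRCm38.p6 build, from 250 bases before to 50 bases after the annotated start, read 5′ to 3′ on the strand of the gene. Capitals mark matches to the GC box (GGGCGG) or the TATA box (TATAAA), searched on both strands.
Chat, minus strand, chr14:32465860-32466159: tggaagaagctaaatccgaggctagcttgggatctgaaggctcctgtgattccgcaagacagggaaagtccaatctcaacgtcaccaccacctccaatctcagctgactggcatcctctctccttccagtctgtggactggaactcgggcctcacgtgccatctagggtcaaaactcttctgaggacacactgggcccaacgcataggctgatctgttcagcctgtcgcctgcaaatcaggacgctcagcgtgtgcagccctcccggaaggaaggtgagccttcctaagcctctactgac
Slc18a3, minus strand, chr14:32464801-32465100: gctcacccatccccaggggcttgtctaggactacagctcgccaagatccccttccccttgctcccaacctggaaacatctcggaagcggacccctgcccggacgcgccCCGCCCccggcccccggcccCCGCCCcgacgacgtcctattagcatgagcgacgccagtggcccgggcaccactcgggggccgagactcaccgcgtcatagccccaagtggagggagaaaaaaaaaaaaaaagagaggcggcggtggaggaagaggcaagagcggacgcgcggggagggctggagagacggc
Slc5a7, minus strand, chr17:54298985-54299284: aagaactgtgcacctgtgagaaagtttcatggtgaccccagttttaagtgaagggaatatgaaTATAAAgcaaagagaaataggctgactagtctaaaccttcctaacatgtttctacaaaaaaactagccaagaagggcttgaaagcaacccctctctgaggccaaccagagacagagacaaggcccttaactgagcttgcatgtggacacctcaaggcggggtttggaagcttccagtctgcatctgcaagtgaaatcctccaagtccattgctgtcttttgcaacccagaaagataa
Ache, plus strand, chr5:137288004-137288303: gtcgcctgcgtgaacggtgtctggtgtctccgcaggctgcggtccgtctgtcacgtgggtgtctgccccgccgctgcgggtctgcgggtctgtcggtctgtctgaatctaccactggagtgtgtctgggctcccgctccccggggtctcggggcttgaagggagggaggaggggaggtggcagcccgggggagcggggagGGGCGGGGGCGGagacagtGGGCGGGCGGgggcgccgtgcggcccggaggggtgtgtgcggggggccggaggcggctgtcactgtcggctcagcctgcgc

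The Ache window held 4 GC boxes on the strand of the gene, the last 2 of them overlapping, between 50 and 22 bases before the start. The Slc18a3 window held 2 on the opposite strand. The Slc5a7 window held 1 TATA box, 187 bases before the start, and neither motif was found in the Chat window. A GC box was found in 35.7% and a TATA box in 13.6% of the 32851 mouse promoter windows of the same length. The LIM homeodomain core TAATTA (5.29% of windows), the REST element core TTCAGCACC (0.371%) and the cAMP response element TGACGTCA (1.79%) were found in none of the windows of the 9 genes that have one, all but Nefh. The other matches were a GC box in the Mnx1 window and a GC box and a TATA box in the Prph window. GC content was 74% in the Ache window, 67% in that of Slc18a3, 55.7% in that of Chat and 44.7% in that of Slc5a7. These matches describe letters only.

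In NeuN-positive nuclei, EAE against healthy, no member was called by the main test. That test was edgeR's quasi-likelihood test on the 10 libraries, with Benjamini-Hochberg adjustment over all 16675 genes tested and a call at an adjusted p under 0.05. It called 0 of the 9 members tested, against 10.2% of all genes tested in either direction. At an unadjusted p under 0.05 it passed 4 of 9 (Slc5a7, Ache, Isl1 and Nefh), against 28.9% of all genes. The DESeq2 Wald test called 1 higher (Isl1) and 1 lower (Nefh), and limma voom with quality weights called 1 higher (Isl1) and 2 lower (Ache and Nefh). Both called more genes than edgeR. DESeq2 called 1746 genes higher and 1247 lower of 16637 tested, and voom 3823 higher and 3882 lower of 16675. The members' median log2 fold change was -0.48, beside -0.032 over all genes tested. Mnx1 had too few counts to be tested.

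Ache, whose enzyme ends cholinergic signalling by splitting acetylcholine, had 370.2, 205, 553, 520.3 and 414 CPM in EAE NeuN-positive replicates 1 to 5. It had 695, 679, 643, 708 and 636 CPM in the healthy NeuN-positive ones. Every EAE library lay below every healthy library, and EAE replicate 2 was the lowest. Groups that did not overlap in this direction were found for 3.45% of all genes tested. The fitted log2 fold change was -0.62 ± 0.23 (SE; 95% interval -1.11 to -0.12; edgeR quasi-likelihood adjusted p 0.0999), which missed the threshold. Limma voom gave -0.67 with an adjusted p of 0.000495. Fold changes are fitted with scaling factors of the comparison's own libraries, so they need not equal the ratio of the CPM means.

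Nefh, the heavy neurofilament subunit of large myelinated axons, had 179, 115, 209.6, 129 and 148 CPM in EAE NeuN-positive replicates 1 to 5 and 246, 277, 185, 264 and 278 CPM in healthy ones. EAE replicate 3 lay above healthy replicate 3, the lowest healthy library, and the other 4 EAE libraries lay below all healthy ones. Its log2 fold change was -0.58 ± 0.19 (edgeR quasi-likelihood adjusted p 0.0618). It passed with an adjusted p of 0.0355 without EAE replicate 3 and 0.0357 without healthy replicate 3, the 2 libraries that overlapped. Over the 10 fits that leave out 1 library, the adjusted p reached 0.15. Prph, peripherin, a filament of neurons with peripheral axons, had 26, 25.7, 32.3, 29.4 and 22.4 CPM in EAE and 25.9, 42, 38.1, 53 and 23.6 CPM in healthy NeuN-positive libraries. Those groups overlapped, with healthy replicates 1 and 5 inside the EAE range, and the log2 fold change was -0.33 ± 0.27 (edgeR adjusted p 0.434).

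Slc5a7 had 2.59, 0, 1.99, 0.147 and 1.38 CPM in EAE NeuN-positive replicates 1 to 5, with no count at all in replicate 2. In healthy NeuN-positive replicates it had 3.85, 4.04, 2.08, 2.53 and 10.5 CPM. Healthy replicate 5 stood well above the other healthy libraries, and only EAE replicate 1 exceeded the lowest healthy one. A log2 fold change of -1.75 ± 0.74 had a 95% interval of -3.35 to -0.16 and an edgeR adjusted p of 0.138. The 0 counts of replicate 2 allow up to 3 counts, a limit that covers counting error only.

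Isl1, a LIM homeodomain factor of motor neurons and of other spinal and sensory neurons, was on average higher in EAE. It had 3.25, 7.31, 3.07, 1.91 and 5.92 CPM in EAE NeuN-positive replicates and 2.41, 1.52, 0.891, 1.12 and 3.28 CPM in healthy ones. Replicates 2 and 5 of the EAE group lay above all healthy libraries, and the other 3 lay inside the healthy range. Isl1 was at 1.39 ± 0.52 log2 units (edgeR adjusted p 0.0999). The DESeq2 adjusted p was 0.0404.

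Chat had 1.41, 0.597, 2.5, 5.73 and 1.45 CPM in EAE NeuN-positive replicates 1 to 5 and 1.12, 2.38, 1.19, 0.491 and 5.05 CPM in healthy ones. In both groups 1 library, EAE replicate 4 and healthy replicate 5, was far above the rest, and the groups overlapped throughout. The log2 fold change of 0.30 ± 0.69 had a wide 95% interval, -1.17 to 1.78 (edgeR adjusted p 0.799), and it was negative, at -0.37, without EAE replicate 4. Slc18a3 had 3.55, 2.68, 4.09, 8.81 and 1.05 CPM in EAE and 4.39, 4.21, 8.81, 6.81 and 5.63 CPM in healthy NeuN-positive libraries. EAE replicates 1, 2, 3 and 5 were below every healthy library and EAE replicate 4 nearly equalled the highest, with a log2 fold change of -0.48 ± 0.50 (edgeR adjusted p 0.55).

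Calca, which encodes calcitonin gene-related peptide, found in motor and sensory neurons, had 4.07, 5.82, 4.26, 1.32 and 4.8 CPM in EAE and 6.21, 7.0, 6.83, 4.99 and 7.75 CPM in healthy NeuN-positive libraries. The groups overlapped only through EAE replicate 2, and the log2 fold change was -0.56 ± 0.39 (edgeR adjusted p 0.369). Chodl, chondrolectin, a marker of fast motor neurons in mouse, ranged over 2.73 to 11.2 CPM in EAE and 3.0 to 4.59 CPM in healthy NeuN-positive libraries, with a log2 fold change of 0.76 ± 0.45 (edgeR adjusted p 0.278). Mnx1, the homeobox factor HB9 of motor neuron identity, ranged over 0.296 to 2.5 CPM in EAE and 0.214 to 1.29 CPM in healthy NeuN-positive libraries, which is 4 to 17 counts in an EAE library and 4 to 13 in a healthy one.

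Markers of other cells moved with this comparison. Microglia and myeloid markers were called higher for 6 of 7 genes and summed to 279.8 to 1423 CPM in EAE against 12 to 32.5 CPM in healthy NeuN-positive libraries, with none of the 7 at 0 in a whole group. T cell markers were called higher for 5 of 5 tested of 7, with sums of 18.2 to 65.3 CPM in EAE and 4.7 to 11.8 CPM in healthy libraries, none at 0 in a whole group. General neuron markers were called for 0 of 10 genes, with a median log2 fold change of 0.40 beside -0.032 over all genes tested. Among them, Rbfox3 had 203 ± 73.2 CPM in EAE and 329 ± 35.9 CPM in healthy NeuN-positive libraries. Excitatory and inhibitory neuron markers were lower for 2 of 6, and oligodendrocyte markers, with the sums given above, were called for 0 of 6. Of all genes tested, 6.55% were called higher and 3.68% lower. Mitochondrial transcripts took 1.08 to 9.35% of the counts in EAE and 0.197 to 3.0% in healthy NeuN-positive libraries, and the 10 most abundant genes took 7.73 to 23.4% in EAE and 6.19 to 12.2% in healthy ones. EAE replicate 2, the lowest library for Ache and the one with no Slc5a7 count, was the highest of the 10 on both measures, and EAE replicate 4 followed at 5.3% and 15.6%. The mean level of 1319 olfactory and vomeronasal receptor genes, a family with its known role in sensory epithelia, was 0.0137 to 0.127 CPM per kb in EAE and 0.0060 to 0.0252 CPM per kb in healthy NeuN-positive libraries, again highest in EAE replicate 2. The part of these cells and measures in the members' differences was not tested.

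**Figure D1:**
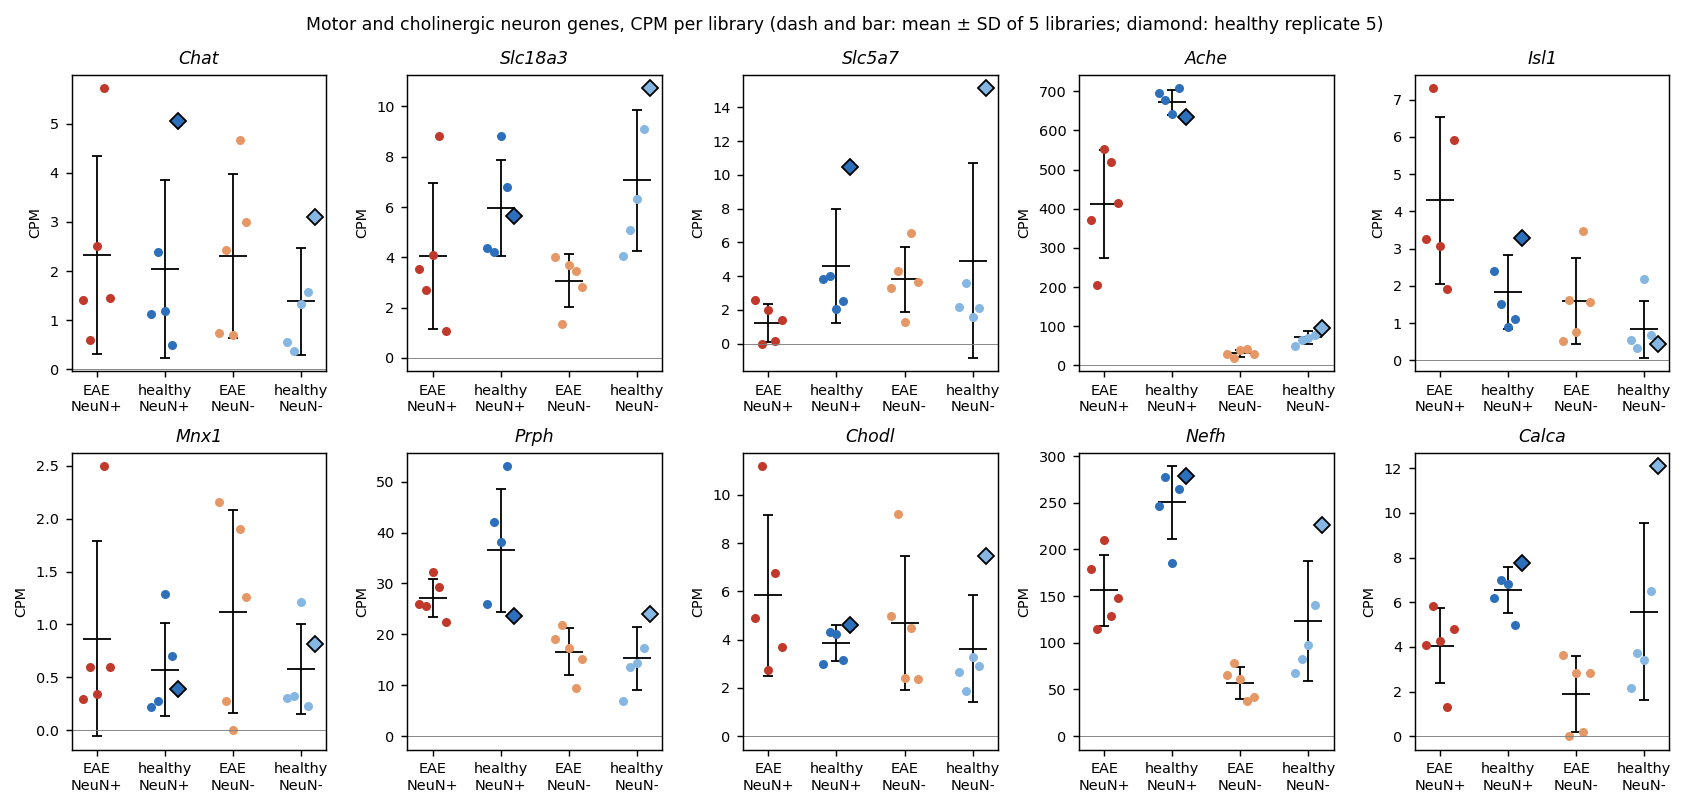
CPM (counts scaled to library size, linear axis) of each of the 10 genes in the 20 libraries, with groups along the horizontal axis in the order EAE NeuN-positive, healthy NeuN-positive, EAE NeuN-negative and healthy NeuN-negative. Points are libraries in order of replicate number, dash and bar are the mean ± SD of 5, and diamonds are healthy replicate 5. Ache in EAE NeuN-positive libraries sits at 204.9 to 553 CPM, below the healthy 636 to 708 CPM, while Chat stays under 6 CPM in all groups.

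In NeuN-negative nuclei, EAE against healthy, Ache was called lower. It was 1 of the 8 members tested, against 12.6% of all 17604 genes tested that were called lower. No member was called higher by edgeR or DESeq2, and voom called Chat higher, with 4517 of all 17604 genes tested. Isl1 and Mnx1 had too few counts to be tested. The members' median log2 fold change was -0.28, beside 0.053 over all genes tested.

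Ache had 27.8, 19, 39.1, 40.6 and 28.9 CPM in EAE NeuN-negative replicates 1 to 5. It had 50.6, 64.2, 70.4, 78 and 94.7 CPM in healthy ones. The groups did not overlap, which held in this direction for 11.4% of all genes tested. The log2 fold change was -0.85 ± 0.29 (edgeR quasi-likelihood adjusted p 0.04), lower in 5 of 5 EAE libraries than the healthy median. The call was lost in 6 of the 10 fits that leave out 1 library, while the log2 fold change stayed between -1.07 and -0.79 over the 10. Where the call was lost, the adjusted p was 0.0707 without EAE replicate 1, 0.0694 without EAE replicate 2 and 0.0885 without EAE replicate 5. It was 0.0541, 0.0645 and 0.0528 without healthy replicates 2, 4 and 5.

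Slc18a3 was the other member whose groups did not overlap. It had 4.02, 1.35, 3.69, 3.46 and 2.84 CPM in EAE NeuN-negative libraries, against 4.05, 5.1, 6.3, 9.1 and 10.7 CPM in healthy ones. The highest EAE library, replicate 1, lay just under the lowest healthy one, also replicate 1. Its log2 fold change was -0.87 ± 0.51 with an edgeR adjusted p of 0.207, so it was not called.

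Nefh had 65.8, 78.3, 60.7, 37.7 and 42.2 CPM in EAE NeuN-negative and 67.7, 83, 97.5, 141 and 227 CPM in healthy NeuN-negative libraries. EAE replicate 2 overlapped the healthy group, whose replicate 5 was the highest. The log2 fold change was -0.72 ± 0.36 (edgeR adjusted p 0.136), and without EAE replicate 2 it was -1.01 with an adjusted p of 0.0484. That was the only call in the 10 fits that leave out 1 library, where the adjusted p reached 0.247. Prph had 19.1, 21.9, 17.2, 9.51 and 15.2 CPM in EAE and 6.99, 13.6, 14.4, 17.3 and 24.1 CPM in healthy NeuN-negative libraries, which overlapped, with a log2 fold change of 0.48 ± 0.36 (edgeR adjusted p 0.32).

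Chat had 0.745, 2.44, 0.692, 4.67 and 3.0 CPM in EAE NeuN-negative and 0.55, 0.364, 1.33, 1.57 and 3.11 CPM in healthy NeuN-negative libraries. The groups overlapped, and EAE replicate 4 was the highest. With edgeR the log2 fold change was 1.23 ± 0.86 (95% interval -0.59 to 3.04; edgeR adjusted p 0.293), and voom gave 1.75 with an adjusted p of 0.0368. Slc5a7 had 3.28, 4.33, 1.27, 6.57 and 3.63 CPM in EAE and 2.15, 3.6, 1.57, 2.14 and 15.1 CPM in healthy NeuN-negative libraries, where replicate 5 held over 4 times as much as any other healthy library. Its log2 fold change was 0.16 ± 0.71 (edgeR adjusted p 0.882), and leaving out 1 library at a time gave -0.30 (without EAE replicate 4) to 0.99 (without healthy replicate 5), with a negative value in 6 of 10 fits.

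Calca had 3.65, 0, 2.82, 0.173 and 2.84 CPM in EAE NeuN-negative libraries, with no count in replicate 2, and 2.15, 3.72, 3.39, 6.52 and 12.1 CPM in healthy ones. Replicates 2 and 4 of the EAE group lay below all healthy libraries and healthy replicate 5 above all others, with a log2 fold change of -1.26 ± 0.81 (edgeR adjusted p 0.248). Chodl ranged over 2.37 to 9.21 CPM in EAE and 1.86 to 7.46 CPM in healthy NeuN-negative libraries, with a log2 fold change of 0.82 ± 0.63 (edgeR adjusted p 0.337). Isl1 had 0.521 to 3.46 CPM in EAE and 0.324 to 2.18 CPM in healthy libraries. Mnx1 had 0 to 2.16 CPM in EAE and 0.225 to 1.21 CPM in healthy libraries.

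Other measures moved with this comparison too. Microglia and myeloid markers were called higher for 4 of 7 genes and summed to 552.5 to 2427 CPM in EAE against 244.4 to 387 CPM in healthy NeuN-negative libraries. T cell markers were called higher for 7 of 7, at 77.2 to 245 CPM in EAE and 3.07 to 10.5 CPM in healthy libraries, while 3 of 6 oligodendrocyte and 1 of 6 astrocyte markers were lower. Of all genes tested, 15.1% were called higher and 12.6% lower. No gene of these lists was at 0 in a whole group. Mitochondrial transcripts took 2.18 to 14.6% of the counts in EAE and 0.367 to 4.51% in healthy NeuN-negative libraries. The 10 most abundant genes took 48.2% in EAE replicate 2 and 34.6% in replicate 4, against at most 15.6% in healthy NeuN-negative libraries. Those 2 EAE libraries held the fewest counts of the 20, were the highest on both measures, and were the lowest of the 10 for Calca, while replicate 4 was the highest for Chat. The mean level of the olfactory and vomeronasal receptor genes was 0.513 CPM per kb in EAE NeuN-negative replicate 2, 0.39 in replicate 4 and 0.11 in replicate 5, against at most 0.0796 in healthy NeuN-negative libraries. Chat exceeded the 95th percentile of those receptor genes in 1 of 5 EAE NeuN-negative libraries, Isl1 in 0 of 5 and Chodl in 2 of 5, while Ache, Nefh and Prph exceeded it in 5 of 5. Their part in the members' differences was not tested.

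Between the sorts within EAE, 2 of 9 members tested were higher in NeuN-positive nuclei, against 15.5% of all 17982 genes tested. Both were abundant genes, Ache and Nefh. Replicate numbers were taken to pair the sorts, and the replicate block changed the call of no member in either condition. The fold changes, intervals and p-values printed for the sorts and for the difference of the EAE effect come from fits without that block, unless it is named. In the values given above, every NeuN-positive Ache library of EAE lay above every NeuN-negative one, by 3.43 to 3.84 log2 units within the 5 pairs. The log2 fold change was 3.47 ± 0.38 (edgeR quasi-likelihood adjusted p 1.27e-05). Nefh groups did not overlap either, with a log2 fold change of 1.19 ± 0.32 (edgeR adjusted p 0.0108). Groups without overlap in this direction were found for 13% of all genes tested. Prph did not overlap by a small margin, 22.4 CPM in the lowest NeuN-positive against 21.9 CPM in the highest NeuN-negative library, and its log2 fold change of 0.46 ± 0.32 was not called (edgeR adjusted p 0.283).

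None of the transmitter genes was called higher in EAE NeuN-positive nuclei. Chat was at -0.36 ± 0.89 log2 units (95% interval -2.22 to 1.5; edgeR adjusted p 0.783). Slc18a3 was at 0.16 ± 0.70 (95% interval -1.30 to 1.62; edgeR adjusted p 0.878). Slc5a7 lay lower in NeuN-positive nuclei, at -1.95 ± 0.97 (95% interval -4.00 to 0.092; edgeR adjusted p 0.135), and the DESeq2 adjusted p was 0.0384. These intervals are wide and do not show equal levels. Isl1 (1.11 ± 0.81, edgeR adjusted p 0.31), Chodl (0.016 ± 0.63, edgeR adjusted p 0.987) and Calca (0.97 ± 0.88, edgeR adjusted p 0.423) were not called. With DESeq2 size factors the value of Chodl was negative, -0.088.

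Between the sorts in healthy mice, 3 of 9 members tested were higher in NeuN-positive nuclei, against 22.8% of all 17134 genes tested. Ache had a log2 fold change of 3.18 ± 0.21 (edgeR quasi-likelihood adjusted p 4.62e-07), and the lowest NeuN-positive library, at 636 CPM, was far above the highest NeuN-negative one, at 94.7 CPM. It was the only member whose healthy sorts did not overlap, which held in this direction for 17.6% of all genes. Prph had a log2 fold change of 1.22 ± 0.34 (edgeR adjusted p 0.0102) and Nefh of 0.98 ± 0.28 (edgeR adjusted p 0.013). Both overlapped through NeuN-negative replicate 5, which exceeded the lowest NeuN-positive library of each gene.

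Chat (0.52 ± 0.69; 95% interval -0.98 to 2.03; edgeR adjusted p 0.577) was not called between healthy sorts. Slc18a3 was on average higher in NeuN-negative libraries, with 5.97 ± 1.9 CPM in NeuN-positive and 7.06 ± 2.79 CPM in NeuN-negative ones (SD, n = 5 each), and its log2 fold change of -0.27 ± 0.35 was not called (edgeR adjusted p 0.57). Slc5a7 was at -0.11 ± 0.62 (95% interval -1.46 to 1.25; edgeR adjusted p 0.906) and turned to 0.32 without both libraries numbered healthy 5. Isl1, at 1.09 ± 0.64 (edgeR adjusted p 0.19), was called without NeuN-negative replicate 3, at 1.91 with an adjusted p of 0.00705. That was the only call in the 10 fits that leave out 1 library, where the adjusted p reached 0.394. Chodl (0.055 ± 0.38, edgeR adjusted p 0.923) and Calca (0.21 ± 0.40, edgeR adjusted p 0.704) were not called. Voom called 7 members higher here, adding Chat (1.73), Isl1 (1.94), Chodl (0.70) and Calca (0.92). It called 6201 of all 17134 genes tested higher.

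The effect of EAE on the members was not shown to differ between the sorts. The difference of the EAE effect, NeuN-positive minus NeuN-negative, was fitted on all 20 libraries with edgeR and called 0 of 10 members, against 2.56% of all 20444 genes tested. With the replicate number as a block, 0 of 10 members and 2492 genes were called, beside 524 without it. At an unadjusted p under 0.05 the fit without the block passed 0 of 10 as well, against 18.2% of all genes, and DESeq2 and voom called 0. The largest in size was Slc5a7, at -1.62 ± 1.06 log2 units (edgeR adjusted p 0.431). For Ache it was 0.41 ± 0.40 (edgeR adjusted p 0.633), and the median over all genes tested was 0.15, which became -0.11 with DESeq2 size factors.

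**Figure D2:**
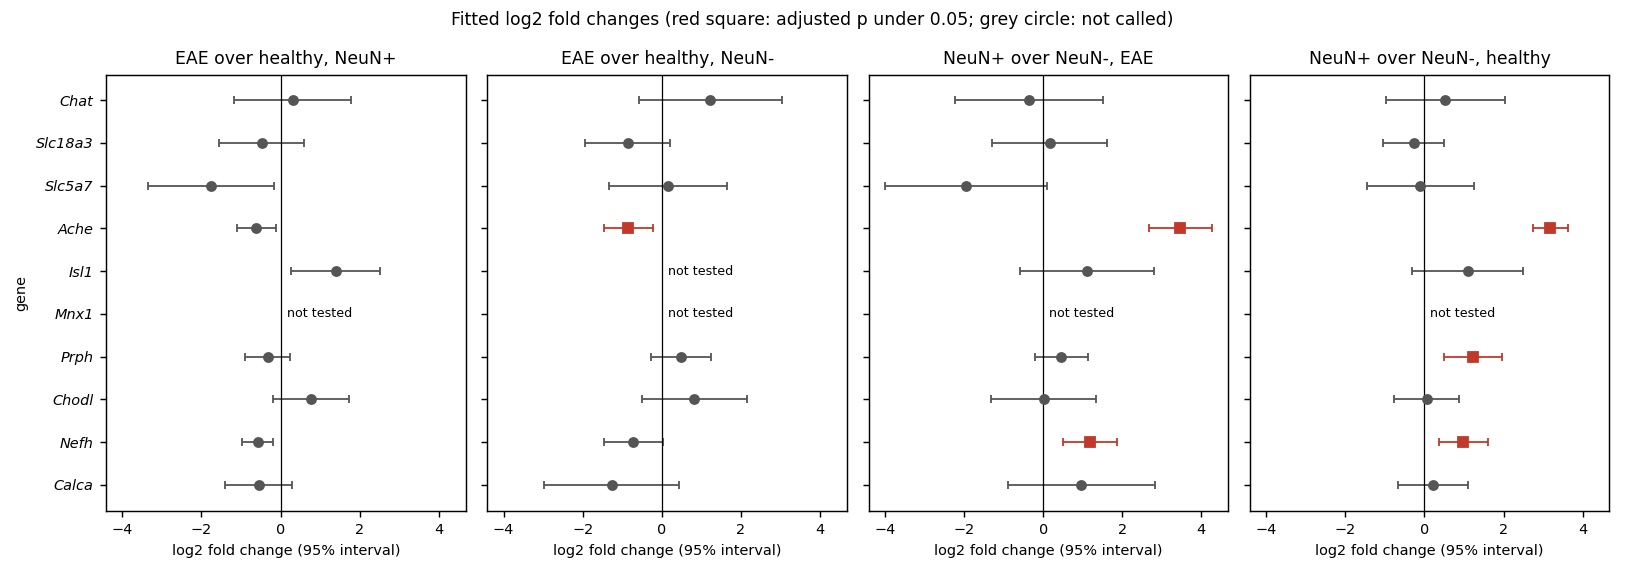
Fitted log2 fold change (horizontal axis) with its 95% interval for each gene (rows) in 4 panels, EAE over healthy in NeuN-positive and NeuN-negative nuclei and NeuN-positive over NeuN-negative in EAE and healthy mice. Red squares are genes called at an adjusted p under 0.05 and grey circles those not called. Ache is called in 3 panels, at -0.85, 3.47 and 3.18, while the intervals of Chat include 0 in all 4.

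Healthy NeuN-negative replicate 5 was the highest of the 5 healthy NeuN-negative libraries for 8 of 10 genes, all but Isl1 and Mnx1. The share of all genes for which it was the highest was not computed. Of the 8 members with a mean of at least 1 CPM in the group, 5 were at least 2-fold over the median of the other 4 libraries, against 15.8% of the 16104 genes at that level. Slc5a7 was 7.07-fold over it, with 15.1 CPM (560 counts) beside 1.57 to 3.6 CPM in the others. Calca was 3.4-fold over, with 12.1 CPM beside 2.15 to 6.52 CPM, and Chat 3.3-fold, with 3.11 CPM (115 counts) beside 0.364 to 1.57 CPM. Chodl was 2.68-fold and Nefh 2.51-fold over, and the remaining genes with that level were Slc18a3 (1.88-fold), Prph (1.72-fold) and Ache (1.41-fold). Under that level, Isl1 was at 0.71-fold and Mnx1, with 0.811 CPM beside 0.225 to 1.21 CPM, at 2.6-fold. The mean used for that level took in replicate 5 itself, for members and for all genes. For Chat the median of the other 4 libraries was 0.941 CPM, and Chat reached that level only with replicate 5 included.

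That library was also the deepest, with 37689267 counts. Excitatory and inhibitory neuron markers summed to 253.6 CPM in it, 4.01-fold over the median of the other 4 (54.7 to 89.7 CPM). The summed general neuron markers were 1.36-fold and Rbfox3 1.5-fold over, while sensory ganglion neuron markers were at 0.53-fold. Snhg11 and Elavl3 averaged 987 and 762 of the 2571 CPM of the general sum over the 5 healthy NeuN-negative libraries. That sum need not describe each marker. Over these 5 libraries Snap25 ranged over 123 to 993 CPM (median 199), and Snhg11 over 586 to 1257 CPM (median 1069). The part of these neurons in the members' levels was not tested. The NeuN-positive library with the same number was the highest of its group for 6 of 10 members, again without a share over all genes to set beside it. There 3 of 9 with a mean of at least 1 CPM, Chat (4.37-fold), Slc5a7 (3.28-fold) and Isl1 (2.48-fold), were at least 2-fold over the median of the other 4, against 10.1% of 15529 genes. Its excitatory and inhibitory markers were 1.94-fold over. Without both libraries, edgeR called 0 members lower in EAE NeuN-negative nuclei, where Ache had an adjusted p of 0.0528. The 3 calls between the healthy sorts held without them.

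**Figure D3:**
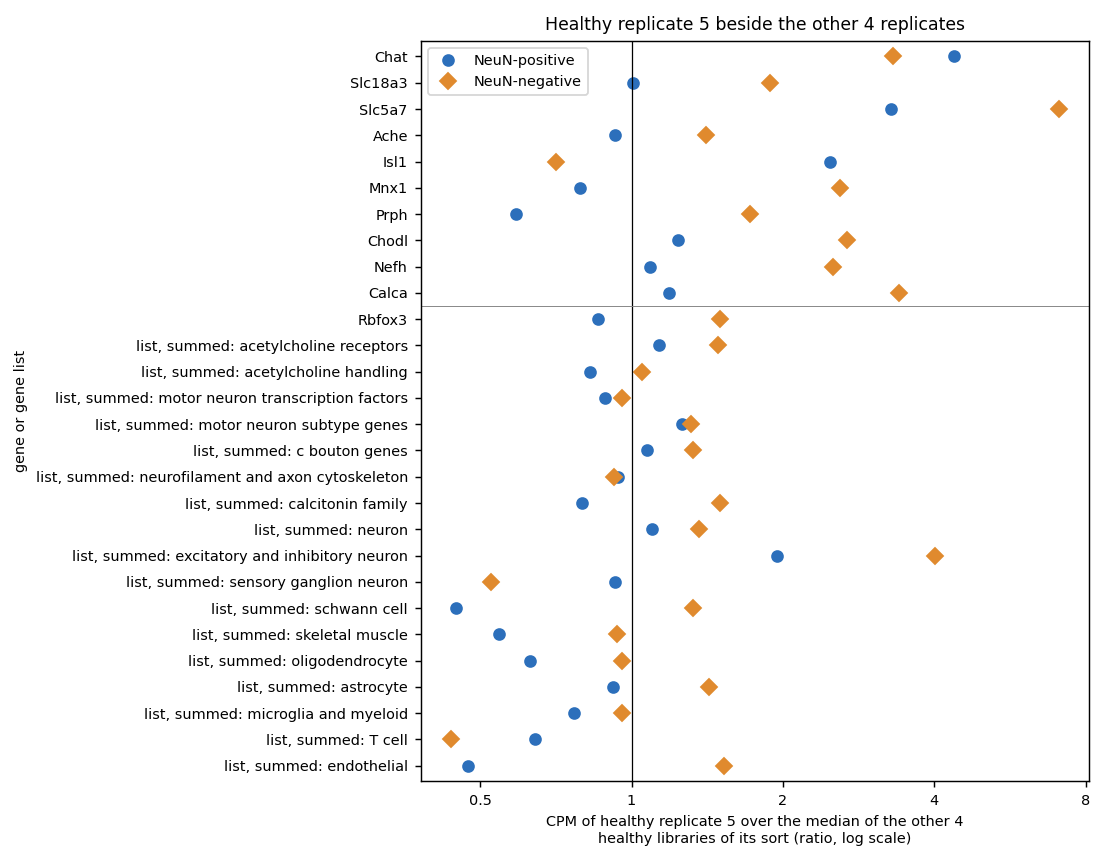
CPM of healthy replicate 5 divided by the median of the other 4 healthy libraries of the same sort (horizontal axis, log scale) for the 10 genes, Rbfox3 and the summed CPM of gene lists (rows). Circles are the NeuN-positive and diamonds the NeuN-negative library. Slc5a7 is furthest right in the NeuN-negative library, at 7.07, followed by the excitatory and inhibitory neuron list at 4.01.

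Slc18a3 lies within the Chat gene, and the Chat counts were followed as a share of the summed counts of both. In the GENCODE M21 annotation of GRCm38, Chat is at chr14:32408203-32465989 and Slc18a3, a single exon, at chr14:32462438-32464850. Both are on the minus strand, and Slc18a3 lies in a Chat intron with 0 shared exon bases. An antisense gene, Gm2990, overlaps the start of Chat, and the use of strand in counting is not given. Chat took 28.4, 18.2, 37.9, 39.4 and 57.9% of the counts of both genes in EAE NeuN-positive replicates 1 to 5. It took 20.4, 36.1, 11.9, 6.73 and 47.3% in healthy NeuN-positive ones. These groups overlapped widely, with means of 36.4 ± 14.7% in EAE and 24.5 ± 16.9% in healthy libraries (SD, n = 5 each; two-sided exact permutation p 0.262, also after adjustment over both sorts). This share was added after the data were seen.

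In NeuN-negative nuclei the shares were 15.6, 64.3, 15.8, 57.4 and 51.4% in EAE replicates 1 to 5. In healthy replicates they were 12, 6.67, 17.5, 14.7 and 22.5%. EAE replicates 2, 4 and 5 stood above every healthy library and the other 2 lay inside the healthy range. Replicates 2, 4 and 5 are also the EAE NeuN-negative libraries with the highest mean receptor levels, given above. The means were 40.9 ± 23.4% in EAE and 14.7 ± 5.91% in healthy libraries (SD, n = 5 each), with a two-sided exact permutation p of 0.0714, or 0.143 adjusted over both sorts. The smallest p that 252 regroupings can give is 0.00794. When 1 library was left out, the unadjusted permutation p ran from 0.0238 to 0.119. It was lowest without EAE replicate 1 or without EAE replicate 3, the 2 EAE libraries inside the healthy range. Counts were few, 14 of both genes in EAE replicate 2, where the 95% Wilson interval of the share ran from 38.8 to 83.7%. The intervals cover counting error only.

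**Figure D4:**
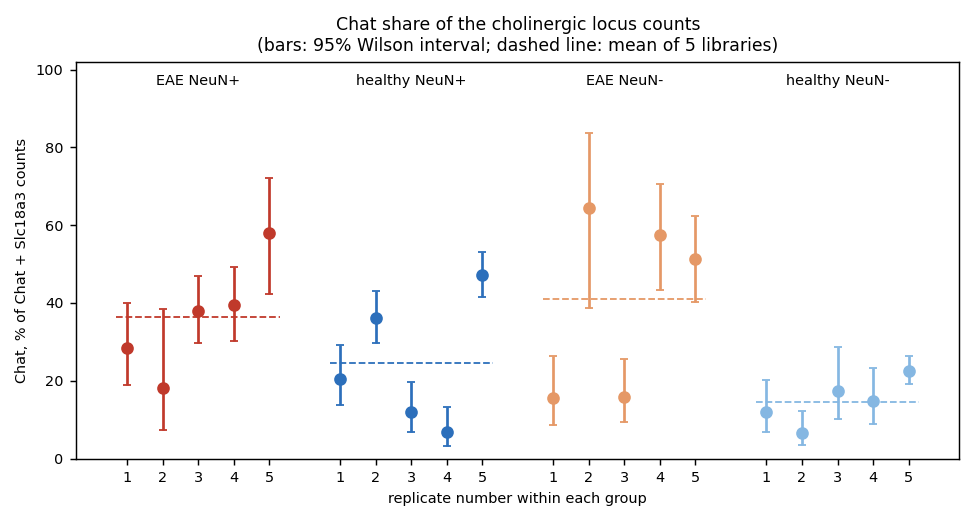
Share of Chat in the summed Chat and Slc18a3 counts (vertical axis, percent) per library, by replicate number within the groups EAE NeuN-positive, healthy NeuN-positive, EAE NeuN-negative and healthy NeuN-negative. Bars are 95% Wilson intervals of 1 library and dashed lines the mean of 5. EAE NeuN-negative replicates 2, 4 and 5 are at 51.4 to 64.3%, above all healthy NeuN-negative libraries, which reach 22.5%.

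Chat did not vary with the other members across libraries in a way that passed a test. In the 10 NeuN-positive libraries, Pearson correlations of log2 CPM between Chat and the 9 other members ran from -0.39 with Calca to 0.29 with Ache. Among the 9, the lowest adjusted permutation p was 0.942, and Spearman's rho, whose lowest adjusted p was 0.912, ran from -0.21 to 0.16. Chat and Slc18a3, neighbours that share a locus, were at an r of 0.25 and a rho of 0.10, and at -0.16 without the 2 libraries farthest from the median of Chat. With values centred on their own group's mean, the lowest adjusted p of r among the 9 was 0.696. The 36 pairs without Chat were described and not tested. Over the same 10 libraries, r ran from -0.80 for Isl1 and Prph to 0.90 for Slc5a7 and Nefh, with 0.80 for Ache and Nefh and -0.79 for Slc18a3 and Isl1. With values centred on their own group, r was 0.82 for Slc5a7 and Nefh, 0.52 for Ache and Nefh, -0.72 for Slc18a3 and Isl1 and -0.73 for Isl1 and Prph. The points share the depth and scaling of their libraries, and Slc5a7 had 0 or 1 count in 2 of them. The non-member genes most like Chat over all 20 libraries, of 17825 compared, were Map3k13 (r = 0.77), Pcdh17 (0.77), Plk4 (0.74), Fam199x (0.73) and Fgf10 (0.71). Over the 10 NeuN-positive libraries, of 16219 genes, they were Lrrk2 (0.93), Dido1 (0.92), 4932443L11Rik (0.91), Slc25a32 (0.90) and Midn (0.89). Such values are a description, since all genes of a library share its depth and scaling.

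Counts of the gene lists that follow are to be read beside the shares of all genes tested that edgeR called. These were 6.55% higher and 3.68% lower for EAE over healthy in NeuN-positive nuclei, and 15.1% higher and 12.6% lower in NeuN-negative nuclei. For NeuN-positive over NeuN-negative nuclei they were 15.5% higher and 14.8% lower in EAE, and 22.8% higher and 23% lower in healthy mice. For the difference of the EAE effect they were 1.74% higher and 0.822% lower. With the replicate block, 1992 genes were called higher and 500 lower for that difference, of 20444 tested.

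Of 11 other genes of acetylcholine handling, 1 was called lower and 0 higher by edgeR in EAE NeuN-positive nuclei. This was Ly6h, which encodes a toxin-like modulator of nicotinic receptors, with 133 ± 113 CPM in EAE and 523 ± 85.1 CPM in healthy libraries (SD, n = 5 each; log2 fold change -1.95 ± 0.41, adjusted p 0.00849). In EAE NeuN-negative nuclei 4 of 11 were lower and 0 higher (all genes: 12.6% lower, 15.1% higher), with a median log2 fold change of -0.81 beside 0.053 over all genes. Among them, Bche, the butyrylcholinesterase gene, had 8.09 ± 1.27 CPM in EAE and 34.5 ± 9.16 CPM in healthy libraries (log2 fold change -1.71 ± 0.31, edgeR adjusted p 0.000937). Prima1, which anchors acetylcholinesterase in brain membranes, had 14 ± 9.19 CPM in EAE and 92.8 ± 46.7 CPM in healthy libraries (-2.46 ± 0.47, edgeR adjusted p 0.00138). Slc44a1, a choline transporter of many cells, had 69.9 ± 30.8 CPM in EAE and 197 ± 73.3 CPM in healthy libraries (-1.19 ± 0.32, edgeR adjusted p 0.0132).

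Between the sorts, this list split both ways. In healthy mice NeuN-positive nuclei had 6 of 11 higher and 5 lower (all genes: 22.8% and 23%), and in EAE they had 5 higher and 2 lower (15.5% and 14.8%). Ly6h (3.56 ± 0.29 log2 units) and Lynx1 (1.74 ± 0.29), another nicotinic receptor modulator, were higher in healthy NeuN-positive nuclei. Bche (-4.29 ± 0.24), Prima1 (-3.81 ± 0.56) and Slc44a1 (-2.16 ± 0.21) were lower there, and all 5 were called by edgeR. In EAE, Colq, which encodes the collagen tail of acetylcholinesterase at the neuromuscular junction, was higher in NeuN-positive nuclei (24.3 ± 13.4 CPM) than in NeuN-negative ones (5.14 ± 2.51 CPM; SD, n = 5 each; edgeR adjusted p 0.00418). The EAE effect differed between the sorts for Slc44a1 (1.54 ± 0.40 log2 units, edgeR adjusted p 0.0393), a count of 1 of 11 that was 0 to 1 when 1 library was left out and 4 with the replicate block.

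Some acetylcholine receptor genes were higher in NeuN-positive nuclei. In healthy mice 7 of 15 tested, of 21 listed, were higher in NeuN-positive nuclei and 1 was lower, against 22.8% and 23% of all genes. Leaving out 1 library moved these counts over 4 to 9 higher and 0 to 1 lower. Chrnb2 had 106 ± 9.86 CPM in NeuN-positive and 22 ± 3.3 CPM in NeuN-negative libraries. Chrna4, its partner in the main brain nicotinic receptor, had 80.5 ± 9.1 CPM in NeuN-positive and 12.8 ± 4.32 CPM in NeuN-negative libraries, and Chrm3, a muscarinic receptor gene, had 10.4 ± 4.07 CPM in NeuN-positive and 1.69 ± 1.19 CPM in NeuN-negative libraries. Chrne, the adult muscle subunit, was the lower one (-2.86 ± 0.61). In EAE, 3 of 12 tested (Chrna4, Chrnb2 and Chrm2) were higher in NeuN-positive nuclei and 0 lower. EAE against healthy called 0 of 11 in NeuN-positive nuclei with edgeR, and 4 of 13 higher and 0 lower in NeuN-negative nuclei. Of these 4, Chrm1 had 7.0 ± 5.67 CPM in EAE and 1.21 ± 0.51 CPM in healthy libraries, Chrna2 4.75 ± 4.28 CPM in EAE and 0.79 ± 0.406 CPM in healthy libraries, and Chrna1 2.99 ± 2.22 CPM in EAE and 0.664 ± 0.406 CPM in healthy libraries. The SDs in EAE were large beside the means. Leaving out 1 library moved that count over 1 to 8. The EAE effect differed between the sorts for 1 of 20 tested, Chrnb4 (-5.32 ± 1.32 log2 units, NeuN-positive minus NeuN-negative; edgeR adjusted p 0.0308), a count of 0 to 2 when 1 library was left out and 2 with the replicate block. Chrnb4 had 0.231 ± 0.219 CPM in EAE and 0.975 ± 0.326 CPM in healthy NeuN-positive libraries, and 3.64 ± 4.6 CPM in EAE and 0.37 ± 0.222 CPM in healthy NeuN-negative libraries. In the NeuN-negative libraries, the mean level of the olfactory and vomeronasal receptor genes was 0.22 ± 0.218 CPM per kb in EAE and 0.0272 ± 0.03 in healthy ones. Its part in the differences of Chrm1, Chrna2, Chrna1, Chrnb4 and the low genes of the lists below was not tested.

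Of 16 further transcription factor genes of motor neurons, 1 was called higher by edgeR in EAE NeuN-positive nuclei and 0 lower. This was Lmo4, a LIM-only cofactor, with 30.1 ± 13 CPM in EAE and 14.1 ± 2.4 CPM in healthy libraries (SD, n = 5 each; log2 fold change 1.22 ± 0.30, edgeR adjusted p 0.0212), a count of 0 to 3 when 1 library was left out. In EAE NeuN-negative nuclei 3 of 14 tested were higher, among them Lmo4 and Esrrb, and 1 was lower, Etv4, at 33.8 ± 11.1 CPM in EAE and 136 ± 30.9 CPM in healthy libraries. In healthy mice 5 of 13 tested were higher in NeuN-positive nuclei, among them Lhx4 and Esrrb, and 2 lower, Etv1 and Pou3f1, against 22.8% and 23% of all genes. Leaving out 1 library moved these counts over 1 to 6 higher and 2 to 4 lower, and the replicate block gave 4 lower.

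Of 17 genes used to tell motor neuron types apart, Spp1 (osteopontin) and Aldh1a2 (a retinoic acid synthesis enzyme) were called higher in EAE NeuN-positive nuclei and 0 lower, and leaving out 1 library gave 0 to 2 higher and 0 to 1 lower. Spp1 had 79.9 ± 81.5 CPM in EAE and 14.3 ± 9.97 CPM in healthy libraries. Both genes are also used by other cell types, Spp1 by myeloid cells, and the myeloid markers moved as given above. In EAE NeuN-negative nuclei 5 were higher and 3 lower of 16 tested. In healthy mice Mmp9, a marker of fast motor neurons in mouse, had 13.7 ± 1.47 CPM in NeuN-positive and 2.02 ± 0.725 CPM in NeuN-negative libraries (2.73 ± 0.28, edgeR adjusted p 8.98e-06). Htr1d, a serotonin receptor gene, had 8.63 ± 2.08 CPM in NeuN-positive and 0.908 ± 0.385 CPM in NeuN-negative libraries. In all, 6 were higher and 5 lower between the healthy sorts, and 4 higher and 3 lower between the EAE sorts, of 16 tested in each. The shares of all genes were 22.8% higher and 23% lower in healthy mice, and 15.5% higher and 14.8% lower in EAE.

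Of 6 genes of cholinergic C-bouton synapses, 0 of 5 tested were called in EAE NeuN-positive nuclei by edgeR, and 4 of 5 were higher in healthy NeuN-positive than in NeuN-negative nuclei, among them Kcnn2 and Nrg1. Of 9 neurofilament and axon cytoskeleton genes, 0 were called in EAE NeuN-positive nuclei and 1, Dst, was lower in EAE NeuN-negative nuclei (-1.22 ± 0.44, edgeR adjusted p 0.0458), a count of 0 to 2 when 1 library was left out. Nefm, the medium neurofilament subunit, had 422 ± 178 CPM in healthy NeuN-positive and 156 ± 118 CPM in healthy NeuN-negative libraries (SD, n = 5 each). Of 10 genes of the calcitonin family and its receptors, Ramp3 was the 1 called in EAE NeuN-negative nuclei, at 7.57 ± 3.81 CPM in EAE and 2.37 ± 0.374 CPM in healthy libraries, and 0 of 8 tested were called in EAE NeuN-positive nuclei. Between the healthy sorts 3 of 8 tested in that family were higher in NeuN-positive nuclei (1 to 4 when 1 library was left out) and 3 lower, against 22.8% and 23% of all genes. Calcb, a second gene for the peptide of Calca, had 4.35 ± 1.42 CPM in healthy NeuN-positive and 1.71 ± 0.968 CPM in healthy NeuN-negative libraries (1.28 ± 0.49, edgeR adjusted p 0.0493). The 3 lower genes were Ramp1, Ramp2 and Calcrl, which encode receptor parts for peptides of this family. Ramp2 had 11.4 ± 1.95 CPM in healthy NeuN-positive and 22.4 ± 8.8 CPM in healthy NeuN-negative libraries (-0.99 ± 0.26, edgeR adjusted p 0.00812). The same 3 were lower in EAE NeuN-positive than in EAE NeuN-negative nuclei, where 0 of 8 were higher, and leaving out 1 library moved that count over 1 to 4.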

How the data were processed

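RNA of NeuN-sorted nuclei from mouse spinal cord was purified with a Qiagen RNeasy kit, and poly(A)-enriched libraries were made with Illumina TruSeq chemistry, per the labels. The authors deposited unnormalized whole counts, 1 row per Ensembl gene and 1 column per library, and STAR 2.4, DESeq2, GRCm39 and mm10 are named, without roles, per the submitters' processing notes. How genes were counted, on which annotation and with or without strand, is not given in the sources used here. Overlapping and antisense genes may therefore share reads. Of the 43629 genes, 42462 carry a symbol, 1167 do not and stay in the totals, and 5168 are at 0 in all 20 libraries. Within groups, a chi-square per gene over each of 40 library pairs gave 11.1 to 393, and 0 pairs held identical values.

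Groups follow the titles. The main test was edgeR 4.0.16 in R 4.3.3 with filterByExpr, TMM, a robust quasi-likelihood fit and Benjamini-Hochberg adjustment over all genes tested. Fits used the 10 libraries of a comparison, and all 20 for the difference between the EAE effects. CPM was scaled with TMM over the 20 libraries, and log2 CPM took a prior count of 2. Single values were compared by exact permutation, correlations by 100000 permutations. The fits were tested on simulated data. Alternatives were DESeq2 1.42.0 (Wald test and size factors), limma 3.58.1 voom, other count filters, the replicate block, a fit on all 20 libraries and leaving libraries out. Gene positions and exon lengths come from GENCODE M21 (GRCm38).

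The 10 genes and the lists were chosen with earlier results of these data known. All 10 are named. Of each list, up to 3 higher and 3 lower called genes per comparison were eligible by smallest p, not all of them printed, and some are not reported here. All 158 list entries were found. Same-numbered libraries of the 2 sorts deviated together from their group means, with correlations of 0.135 to 0.405 in EAE and 0.321 to 0.739 in healthy mice, each highest with its own number in 5 of 5. The numbers were therefore taken to pair the sorts. The counting error of a library with few counts, such as 4 of Chat, limits its precision.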

Additional observations from a re-analysis of the deposited data

Results flagged for a closer look

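In 5 of 40 groups of 5 libraries, the highest library was far from the others by Dixon's ratio (gap to the nearest library over the whole range, above 0.71). For normally distributed values, chance flags about 1 in 20 groups. CPM of genes with few counts need not be normally distributed, and the groups share libraries, so that rate may not hold here. Slc5a7 stood out in both healthy replicate 5 libraries, with 10.5 CPM in NeuN-positive nuclei (ratio 0.766) and 15.1 CPM in NeuN-negative nuclei (ratio 0.851). Chodl stood out in healthy NeuN-negative replicate 5, with 7.46 CPM (ratio 0.748). Isl1 stood out in healthy NeuN-negative replicate 3, with 2.18 CPM (ratio 0.811), and Mnx1 in EAE NeuN-positive replicate 4, with 2.5 CPM (ratio 0.863).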

How the results depend on the processing

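Over the alternatives, the members' single values kept direction and side of the threshold 856 times, reversed 61 times, gained a call 19 times and lost 8. The calls of Ache and Nefh between the sorts, and of Prph between the healthy sorts, held in every fit run. None of the reversed fold changes was called, and the causes were not tested.

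In EAE NeuN-positive nuclei, DESeq2's Wald test called 1 member higher and 1 lower, with 2993 genes in all, and voom called 1 higher and 2 lower, with 7705 genes, beside 1705 with edgeR. In EAE NeuN-negative nuclei voom called 1 member higher, with 9069 genes, and without a count filter 8635 genes were called, beside 4870. There, 2 members were lower with all 20 libraries in a single fit, with 3786 of 20444 genes, and 0 without the libraries numbered healthy 5. Between the EAE sorts, DESeq2's Wald test called 1 member lower, with 4065 of 17943 genes, and voom called 9146 genes beside 5455. Between the healthy sorts voom called 7 members higher and 12219 genes beside 7848. For the difference of the EAE effect, the genes called were 1519 with the Wald test, 4930 with voom, 268 without a filter and 212 without the libraries numbered healthy 5, beside 524.

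With the replicate number as a block, 0 members were lower in EAE NeuN-negative nuclei (Ache adjusted p 0.0585, edgeR), but same-numbered EAE and healthy libraries correlated at only -0.346 to 0.239 (NeuN-positive) and -0.334 to 0.281 (NeuN-negative), so they share only a number. In 1 of 5 the own number was highest in each sort. Under the block, 2492 genes were called for the difference of the EAE effect, and the uncalled Slc18a3 (-0.063, EAE sorts) and Slc5a7 (0.15, healthy sorts) turned sign. It changed no other call of a member.

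Reversed log2 values for EAE over healthy were Chat -0.10 (voom) and -0.25 (without replicates EAE 2, EAE 4 and healthy 3 of both sorts) in NeuN-positive nuclei. They were Slc5a7 -0.44 (no filter), -0.78 (without those replicates) and -0.21 (20 libraries) in NeuN-negative nuclei. Between the EAE sorts they were Chat 0.067 and Slc18a3 -0.42 without those replicates, Slc18a3 -0.42 with voom, and Chodl -0.088 (DESeq2 size factors), -0.082 (Wald test) and -0.0013 (at least 1 CPM in 5 libraries). Between the healthy sorts they were Slc5a7 0.33 (voom), 0.32 (without healthy 5) and 0.33 (block without healthy 5), and Chodl -0.017 without those replicates. For the difference of the EAE effect they were Slc18a3 -0.026 (voom) and -0.0080 (without those replicates), and Isl1 -0.0081 (size factors), -0.026 (Wald test), -0.39 (voom) and -0.20 (without those replicates). The same difference was -0.17 (size factors), -0.16 (Wald test), -0.18 (voom) and -0.16 (without healthy 5) for Chodl, and -0.014 (voom) for Calca. Without the 2 libraries farthest from the median of Chat, its r was -0.16 with Slc18a3, -0.45 with Mnx1 and -0.40 with Chodl, and on centred values it was -0.036 with Chodl.

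Leaving out 1 library at a time gave 878 to 3124 genes and 0 to 1 members lower in EAE NeuN-positive nuclei, 0 to 1 members lower in EAE NeuN-negative nuclei, and 93 to 1033 genes for the difference of the EAE effect. Log2 values with a reversal ranged over -0.37 to 0.89 (Chat, EAE, NeuN-positive) and -0.30 to 0.99 (Slc5a7, EAE, NeuN-negative). Between the EAE sorts they ranged over -0.89 to 0.17 (Chat), -0.27 to 0.45 (Slc18a3) and -0.32 to 0.59 (Chodl). Between the healthy sorts they ranged over -0.13 to 0.99 (Chat), -0.66 to 0.84 (Slc5a7), -0.13 to 0.41 (Chodl) and -0.0047 to 0.63 (Calca). For the difference of the EAE effect they ranged over -1.44 to 0.0040 (Chat), -0.12 to 0.71 (Slc18a3), -0.75 to 0.78 (Isl1), -1.48 to 0.065 (Mnx1) and -0.40 to 0.53 (Chodl). Depth limits the low members. The lowest count in a library was 0 for Slc5a7, Mnx1 and Calca, 4 for Chat, 5 for Slc18a3 and 6 for Isl1.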
